A study of Mus musculus with 24 samples.

Results

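The genes described are Dbp, Tef and Hlf, which encode the PAR bZIP transcription factors, and Bhlhe40 and Bhlhe41, which encode the DEC repressors. They were taken by gene symbol from the platform annotation, not by any measured value. Each of the 5 genes had 1 probe set (Dbp 10553092, Tef 10425601, Hlf 10389786, Bhlhe40 10540472 and Bhlhe41 10549276), out of 28815 probe sets and 19935 genes in all. Livers came from adult male C57BL/6 mice that had been entrained by light alternating with dim red light and were then kept in constant dim red light, where livers were taken on the second cycle. The 8 groups differ only in circadian time (CT), spaced 3 h apart between CT00 and CT21, with 3 arrays from separate livers at each time and 24 in all. All mice shared the strain, sex, constant dim light and free access to food, so each time is compared with other times and there is no untreated control. The labels speak of 4 mice per time and also of 3 replicates, and their 8 times, which are followed here, are more than the series text lists. In constant dim light, the hours up to CT12 count as subjective day and those after it as subjective night, the active phase of mice.

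Clock outputs of this kind are driven by CLOCK and BMAL1, which bind E-boxes in the promoters or introns of their targets. The PAR bZIP factors, named for their region rich in proline and acidic amino acids, activate genes that carry D-boxes, among them clock genes and liver genes of drug, heme and lipid metabolism. NFIL3 (E4BP4) binds the same D-boxes and represses. DEC1 (encoded by Bhlhe40) and DEC2 (encoded by Bhlhe41) are basic helix-loop-helix proteins that bind E-boxes and repress targets of CLOCK and BMAL1, Dbp included. In liver the PAR bZIP factors are best known as a relay from the clock to detoxification, and the DEC factors for their response to feeding, hypoxia and the clock.

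The E-box is the element through which these genes are known to be driven, so RefSeq promoter windows (GRCm38.p6, from 250 bases before to 50 after each start) were searched for CACGTG, which reads the same on both strands. Windows were found for 4 of the 5 genes (all but Bhlhe40), 5 windows in all, since Tef has 2 starts. Both Tef windows and the Bhlhe41 window held the E-box, 127 and 138 bases before the Tef starts and 153 bases before the Bhlhe41 start. The letters were not in the windows of Dbp and Hlf. Sequence outside these windows, such as that of introns farther from the start, was not searched. The stretches around the 3 E-boxes lie at chr15:81802519-81802578 and chr15:81811249-81811308 on the plus strand (Tef) and at chr6:145865541-145865600 on the minus strand (Bhlhe41), and are given 5′ to 3′ with the E-box in capitals.
Tef, upstream start: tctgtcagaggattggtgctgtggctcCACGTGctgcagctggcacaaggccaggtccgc
Tef, downstream start: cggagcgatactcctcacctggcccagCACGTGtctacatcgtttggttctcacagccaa
Bhlhe41: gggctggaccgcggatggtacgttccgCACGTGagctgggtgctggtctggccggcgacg
Of all 32851 windows of this length 7.15% held CACGTG. None of the 5 windows held a D-box (TTATGTAA or TTACGTAA on either strand, in 1.06% of all windows) or the core of a ROR element (TAGGTCA on either strand, 2.61%). The Hlf window held a cyclic AMP response element, TGACGTCA (1.79% of all windows), 9 bases before the start. These matches describe the letters and were not tested for binding.

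Values are the deposited log2 values of each array relative to the median of the gene over the 24 arrays. A value of 0 is thus that median, which need not be the middle of the gene's range, and a difference of 1 is 2-fold if the log base is 2. They hold no level, so the 5 genes cannot be ranked by abundance, and the labelled tissue could not be checked against levels of hepatocyte markers. Array medians ran from -0.0185 to 0.0147. Of 7 hepatocyte markers tested 1 had a 24 h wave, as had 2 of 37 markers of 8 other cell types, against 13.8% of all genes. At an unadjusted p under 0.05 by limma 5 of those 37 passed, against 4752 of all 19935 genes. In bulk liver, fewer cells of a type and less RNA per cell cannot be told apart.

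All 5 genes followed a 24 h wave, and all 5 differed between the 8 times. Dbp swung the most and Hlf the least, and the fitted peaks of the PAR bZIP genes came in the order Dbp, Tef, Hlf. Those of the DEC genes lay hours apart, Bhlhe41 in the subjective day and Bhlhe40 at 13.9 ± 0.8 h (SE). The highest Bhlhe40 means were those of CT12 and CT09, however, and without CT03 its wave was not called (adjusted p = 0.0988 by limma). A night peak of Bhlhe40 is thus not established. The wave test (limma's moderated F on the cosine and sine terms of a 24 h period, called where the adjusted p was under 0.05) passed 2758 of the 19935 genes (13.8%). The test of equality of the 8 times, which assumes no shape, passed 2167 (10.9%).

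Dbp, the D-site binding protein first described at the albumin promoter, was low from the late subjective night to early day and highest in the late subjective day. At CT00 the 3 livers (replicates 1, 2 and 3, in this order throughout) read -1.94, -0.64 and -0.04, at CT03 -0.87, -1.34 and -0.84, and at CT06 0.77, 0.72 and 1.04. They read 1.50, 1.52 and 1.73 at CT09, 1.31, 1.12 and 1.61 at CT12, and 0.04, 0.10 and 0.27 at CT15. At CT18 they read -0.76, -0.68 and -0.74, and at CT21 -1.64, -1.45 and -1.14. Every liver from CT06 to CT15 lay above every liver of the other 4 times. The livers of CT00 spanned almost the whole lower part of the range, with an SD of 0.97 (n = 3) against a median SD of 0.21 over the 8 times and 0.04 at CT18. By mean CT21 was lowest (-1.41 ± 0.26), CT09 and CT12 did not differ beyond their spread, and neither did CT18 and CT00 or CT00 and CT03. The fitted amplitude (peak minus midline) was 1.48 ± 0.12 (SE), a peak-to-trough fold of 7.73 (95% interval 5.46 to 10.9). The peak lay at 10.1 ± 0.3 h (SE), and by limma the adjusted p was 1.52e-08 for the wave and 4.42e-07 for equality of the times. By amplitude Dbp stood in place 2 among all 19935 genes. Without any single array its amplitude ran from 1.42 to 1.58.

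Tef, which encodes thyrotroph embryonic factor, had a later fitted peak than Dbp and kept its high values into the early night. Its largest rise fell between CT03 and CT06, as did that of Dbp. The 3 livers read -0.87, -0.77 and -0.42 at CT00, -0.93, -0.64 and -0.73 at CT03, and -0.01, 0.01 and 0.07 at CT06. They read 0.49, 0.55 and 0.71 at CT09, 0.64, 0.45 and 0.65 at CT12, and 0.48, 0.15 and 0.39 at CT15. At CT18 they read -0.01, -0.14 and 0.06, and at CT21 -0.37, -0.51 and -0.47. The means at CT09 (0.58 ± 0.11, SD, n = 3) and CT12 (0.58 ± 0.11) stood level, those of CT06 (0.02 ± 0.04) and CT18 (-0.03 ± 0.10) did not differ beyond their spread, and neither did those of CT00 and CT03. The livers of CT09 and CT12 lay above every other liver except the highest of CT15, 0.48, which exceeded 1 liver of CT12. Tef had the tightest fit of the 5 genes, the wave taking up 90.7% of the variation over arrays. Its amplitude was 0.70 ± 0.05, a fold of 2.62 (2.30 to 2.99), its peak lay at 12.0 ± 0.3 h, and the adjusted p was 3.10e-10 for the wave and 1.30e-08 for equality of the times.

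Hlf, which encodes hepatic leukemia factor, had the narrowest span of the 5, its 8 means lying within 0.53 on the log2 scale. The 3 livers read -0.37, -0.25 and -0.27 at CT00, -0.49, -0.34 and -0.23 at CT03, and -0.11, -0.10 and 0.04 at CT06. They read 0.02, 0.03 and 0.30 at CT09, 0.09, 0.15 and 0.28 at CT12, and 0.00, 0.23 and 0.27 at CT15. At CT18 they read 0.01, 0.00 and 0.06, and at CT21 -0.15, -0.10 and -0.12. The 6 livers of CT00 and CT03 lay below all others, whereas the order of CT12, CT15, CT09, CT18, CT06 and CT21, from high to low mean, held no neighbours that differed beyond their spread. The amplitude was 0.26 ± 0.03, a fold of 1.44 (1.32 to 1.56), with a peak at 13.0 ± 0.4 h and an adjusted p of 1.58e-06 for the wave and 0.000279 for equality of the times. By amplitude Hlf stood in place 558 of the 19935 genes.

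Bhlhe41 rose as a narrow day pulse. The 3 livers read -0.26, -0.13 and 0.02 at CT00, -0.21, -0.17 and -0.16 at CT03, and 0.53, 0.66 and 0.92 at CT06. They read 1.05, 0.95 and 1.20 at CT09, 0.90, 0.27 and 0.45 at CT12, and -0.24, 0.25 and -0.15 at CT15. At CT18 they read 0.13, -0.05 and -0.02, and at CT21 -0.15, -0.22 and -0.03. The 9 livers from CT06 to CT12 lay above all 15 others, and the means of the remaining 5 times, between -0.18 and 0.02, had no neighbours in their order that differed beyond their spread. The amplitude was 0.54 ± 0.08, a fold of 2.11 (1.69 to 2.63), the peak lay at 9.21 ± 0.55 h, and the adjusted p was 6.55e-05 for the wave and 4.43e-06 for equality of the times. The 8 means took up 89.7% of the variation over arrays and the 24 h wave alone 66.5%. Bhlhe41 was also the 1 member with a called 12 h component (amplitude 0.30, adjusted p = 0.0128 by limma, among 0.577% of all genes). Leaving out the livers of CT03 (adjusted p = 0.0971), of CT09 (0.117) or of CT15 (0.126) ended that call. For the 12 h component 3 of the 5 members had an unadjusted p under 0.05 by limma, as had 3339 of all 19935 genes.

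Bhlhe40 was marked by a trough at CT03 rather than by a peak. The 3 livers read -0.53, -0.27 and 0.04 at CT00, -1.07, -1.02 and -0.77 at CT03, and -0.16, -0.28 and 0.22 at CT06. They read -0.04, 0.19 and 0.57 at CT09, 0.19, 0.54 and 0.15 at CT12, and -0.24, 0.66 and 0.10 at CT15. At CT18 they read -0.07, 0.32 and 0.15, and at CT21 -0.10, -0.11 and 0.21. All 3 livers of CT03 lay below the other 21, and the mean there, -0.96 ± 0.16 (SD, n = 3), lay 0.70 below the next lowest, CT00. Among the other 7 times no neighbours in the order of means differed beyond their spread. The amplitude was 0.43 ± 0.09, a fold of 1.82 (1.41 to 2.36), with a peak at 13.9 ± 0.8 h and an adjusted p of 0.0042 for the wave and 0.0029 for equality of the times. The wave took up 48.5% of the variation and the 8 means 74.4%. Without CT03 neither test called Bhlhe40 (adjusted p = 0.0988 for the wave, with an amplitude of 0.25 ± 0.08, and 0.399 for equality of the remaining times).

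**Figure D1:**
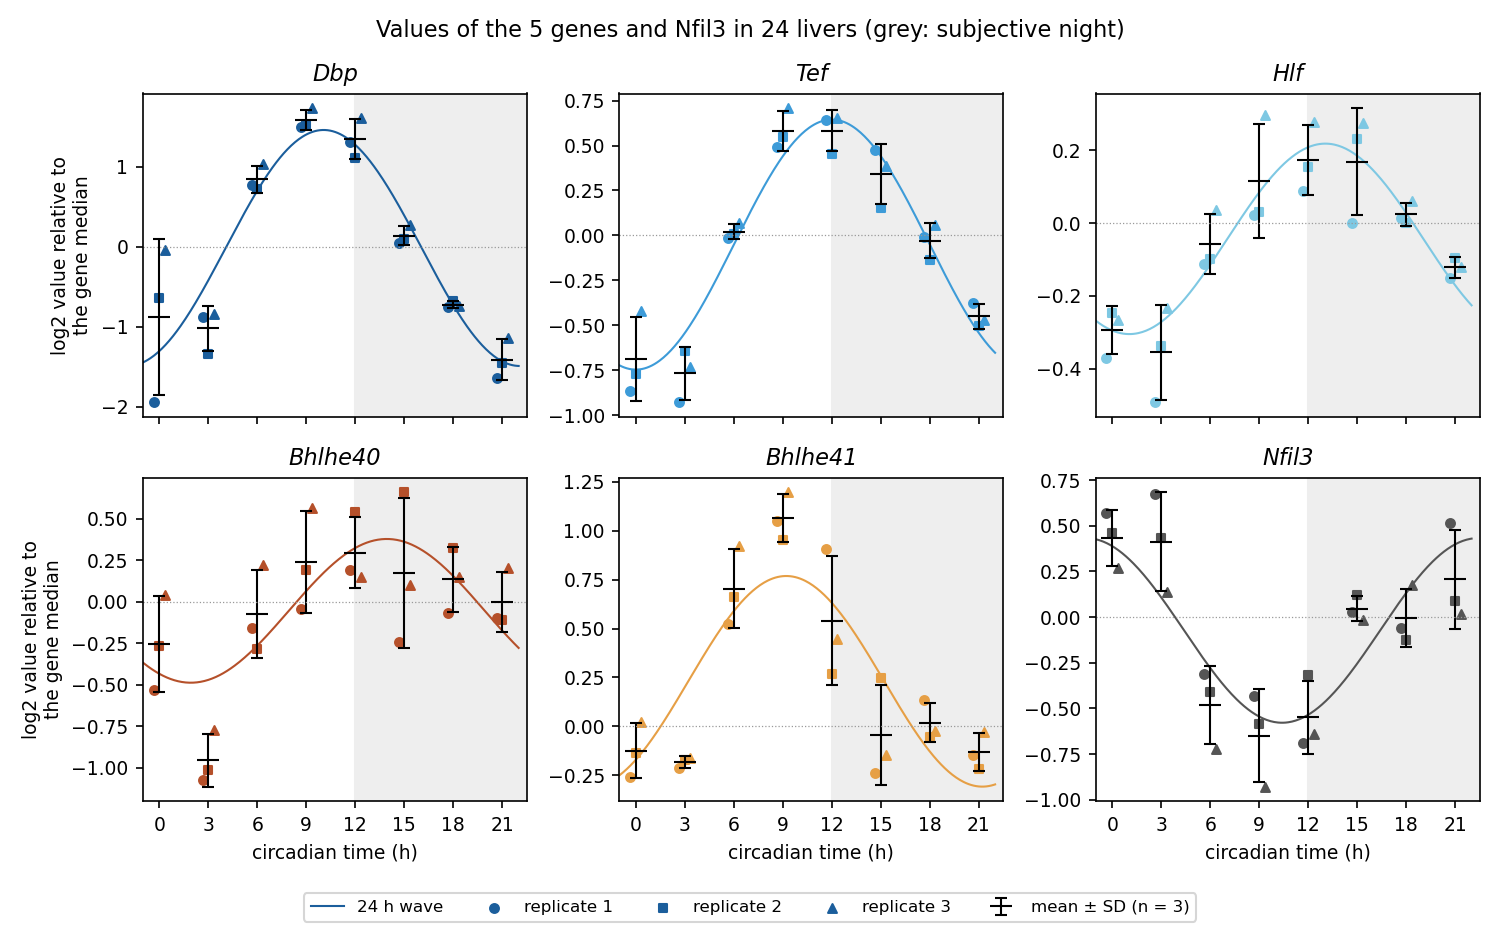
Log2 value relative to the gene median (y axis, own scale in each panel) against circadian time in hours (x axis) for the 5 genes and Nfil3: points are single livers, bars the mean ± SD of 3 and curves the fitted 24 h waves. Dbp, Tef and Hlf crest progressively later, Bhlhe41 is raised only from CT06 to CT12, Bhlhe40 dips to -0.96 at CT03, and Nfil3 is lowest where Dbp is highest.

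The PAR bZIP genes peaked one after another. Within the same arrays Dbp peaked 1.94 h before Tef (95% interval 1.34 to 2.55) and 2.98 h before Hlf (2.04 to 3.93), and Tef peaked 1.04 h before Hlf (0.24 to 1.85). Their amplitudes fell in the same order, from 1.48 to 0.70 to 0.26, by 0.78 from Dbp to Tef (0.55 to 1.01) and by 0.43 from Tef to Hlf (0.34 to 0.53). The DEC genes were 4.71 h apart, Bhlhe40 after Bhlhe41 (2.79 to 6.64), while their amplitudes were not told apart (Bhlhe40 minus Bhlhe41 -0.10, interval -0.34 to 0.13). Without CT03 the Bhlhe40 peak was fitted at 13.1 ± 1.1 h (SE) and the Bhlhe41 peak at 8.14 h, and the interval of their amplitude difference (-0.30) excluded 0. Without CT03 the fitted peaks of Dbp (9.45 h) and Tef (11.6 h) also came earlier, by more than their SE. The Bhlhe41 peak moved the other way without CT15, to 10.1 h.

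Across the families Bhlhe41 kept close to Dbp (Dbp later by 0.85 h, interval -0.18 to 1.87) and Bhlhe40 to Hlf (Bhlhe40 later by 0.88 h, interval -0.50 to 2.26), and neither interval excludes equal times, though that of Dbp and Bhlhe41 did without CT03 (Dbp later by 1.30 h) or without CT18 (1.13 h). Tef lay 2.79 h after Bhlhe41 (1.72 to 3.87) and 1.92 h before Bhlhe40 (0.30 to 3.55), Dbp 3.86 h before Bhlhe40 (2.19 to 5.54) and Hlf 3.83 h after Bhlhe41 (2.50 to 5.16). The Tef and Bhlhe40 interval reached 0 without CT03 (Tef minus Bhlhe40 -1.49 h) or without CT21 (-1.50 h). Intervals of the peak difference excluded 0 in 8 of the 10 pairs, and intervals of the amplitude difference in 9. Two-sided permutation tests of the within-array difference between 2 genes (100000 resamples of arrays over times) found different 24 h waves in 9 of the 10 pairs. In 8 of these the adjusted p was at most 3.75e-05 (1.67e-05, reached by 6 pairs, is the smallest that those 6 ties can give), and it was 0.00146 for Tef and Bhlhe40. Hlf and Bhlhe40 had an adjusted p of 0.0904. That pair passed without CT00 replicate 3 (0.0374), CT15 replicate 1 (0.0349) or CT15 replicate 3 (0.0476), and without all livers of CT00 (0.0436) or of CT15 (0.0329). The smaller amplitude differences were less stable. The interval for Tef minus Bhlhe41 (0.16, interval 0.01 to 0.31) reached 0 in 14 of the 24 fits without 1 array, where the difference fell as low as 0.13 (without CT03 replicate 1), and it was 0.08 without CT03. That for Hlf minus Bhlhe40 (-0.17, interval -0.34 to -0.0024) did so in 14 of 24 as well, where it ran from -0.17 to -0.13 (without CT03 replicate 2), and it was -0.02 without CT03. The interval for Hlf minus Bhlhe41 reached 0 without CT09 (-0.16).

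**Figure D2:**
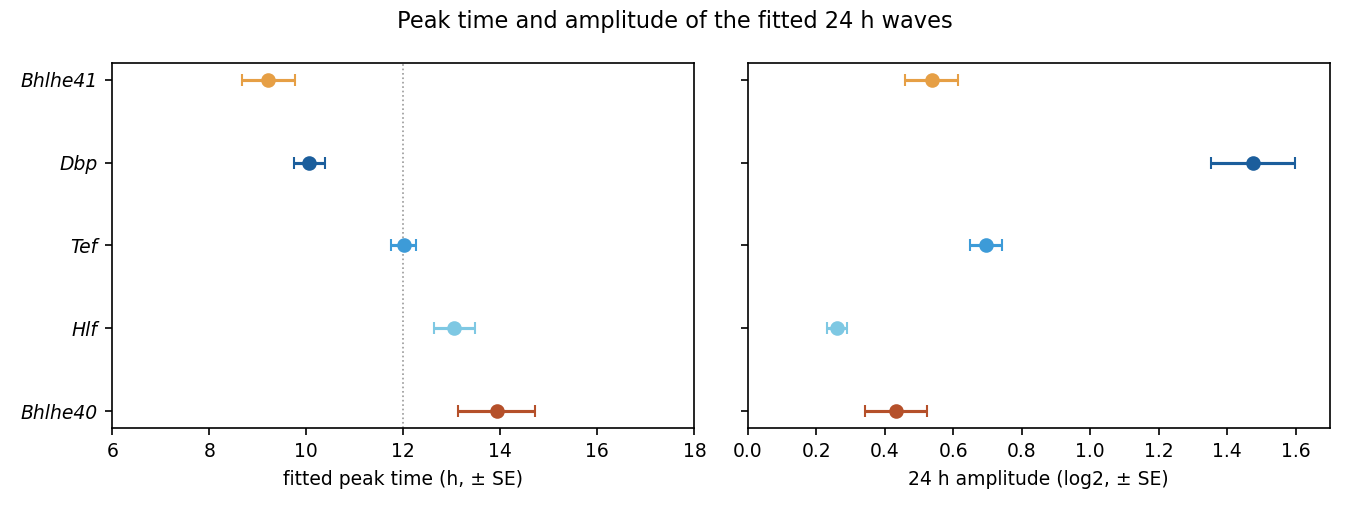
Fitted peak time in hours (left) and amplitude in log2 units (right) of the 5 genes, ordered by peak time, points with standard errors. Peaks run from 9.21 h (Bhlhe41) to 13.9 h (Bhlhe40), and amplitudes from 0.26 (Hlf) to 1.48 (Dbp).

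The steps from one time to the next show when each gene moved. Between CT03 and CT06 Dbp rose 3.63-fold (1.86 ± 0.29, SE, log2; adjusted p = 0.00716), Bhlhe41 1.85-fold (0.88 ± 0.14; adjusted p = 0.00716) and Tef 1.73-fold (0.79 ± 0.10; adjusted p = 0.0023), all 3 livers of CT06 above all 3 of CT03 in each. This step called few genes as higher at CT06, 8 of 19935 (0.0401%), and 3 of those 8 were Dbp, Tef and Bhlhe41. The count of 8 was 1 without CT03 replicate 2 or CT06 replicate 3, 2 without CT03 replicate 1, 5 without CT03 replicate 3 or CT06 replicate 2, 14 without CT00 replicate 1, CT00 replicate 3 or CT12 replicate 2, and 17 without CT15 replicate 2. Tef passed without any single array. Bhlhe40 differed by 0.88 ± 0.20 (adjusted p = 0.104) and Hlf by 0.30 ± 0.08 (adjusted p = 0.276), and all 5 had an unadjusted p under 0.05. At that unadjusted level 1014 of all 19935 genes passed in either direction. The Dbp call was lost without CT03 replicate 2 (adjusted p = 0.0696) or CT06 replicate 3 (0.0721), and the Bhlhe41 call without CT03 replicate 1 (0.0566), CT03 replicate 2 (0.0568) or CT06 replicate 3 (0.0943), while Bhlhe40 gained one without CT15 replicate 2 (0.0361). With the replicate number as a block all 5 were called.

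From CT06 to CT09 Tef rose further, 1.48-fold (0.56 ± 0.10; adjusted p = 0.00829, among 0.176% of genes called as higher at CT09), a call lost with quantile normalization (0.0771). Dbp differed by 0.74 ± 0.29 (adjusted p = 0.274), and without CT00 replicate 1 it was called (0.74 ± 0.16, adjusted p = 0.0324). No downward step called a member. From CT09 to CT12 Bhlhe41 differed by -0.53 ± 0.14 (adjusted p = 0.126; 0.0307 with array weights). From CT12 to CT15 Dbp differed by -1.21 ± 0.29 (adjusted p = 0.0603) and Bhlhe41 by -0.59 ± 0.14 (adjusted p = 0.0579), with 3 of 5 members at an unadjusted p under 0.05 and 0.166% of genes called as lower at CT15. At that unadjusted level 1666 of all 19935 genes passed in either direction. Dbp was called in this step without CT00 replicate 1 (adjusted p = 0.000715) or CT00 replicate 3 (0.0135), and Bhlhe41 without CT06 replicate 3 (0.0487), CT12 replicate 2 (0.0181) or CT15 replicate 2 (0.0271). From CT15 to CT18 Dbp differed by -0.86 ± 0.29 (adjusted p = 0.259; 0.0318 without CT00 replicate 1). No member was called in the steps into CT03, CT12, CT18, CT21 and CT00 by limma, in which 0.00502%, 0.105%, 0.145%, 0.216% and 0.00502% of genes were called in either direction, and 1, 1, 2, 2 and 2 members had an unadjusted p under 0.05. At that unadjusted level 1175, 3039, 2245, 1559 and 2901 of all 19935 genes passed in these steps. The step into CT03 included the drop of Bhlhe40 (-0.70 ± 0.20; adjusted p = 0.491).

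**Figure D3:**
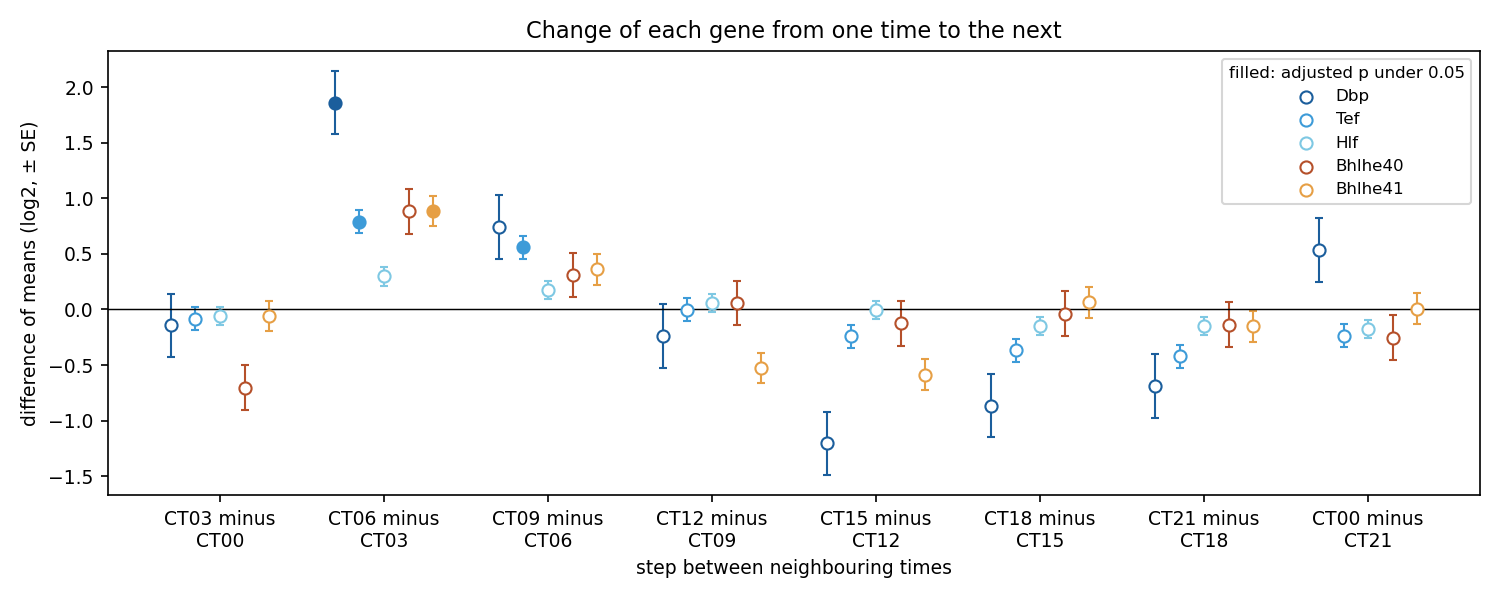
Difference of group means (log2, ± SE, y axis) for each of the 8 steps between neighbouring times (x axis) in the 5 genes, filled where the adjusted p was under 0.05. The largest positive step of each gene was CT03 to CT06, 1.86 for Dbp. The most negative step differed between genes, from CT12 to CT15 for Dbp (-1.21) and Bhlhe41 (-0.59) and from CT00 to CT03 for Bhlhe40 (-0.70).

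Times 12 h apart compare the opposite ends of the cycle without a fitted wave. At CT12 against CT00, dusk against dawn, 4 of the 5 genes were higher, among 1.79% of all genes: Dbp by 2.22 ± 0.29 (4.67-fold, adjusted p = 4.3e-05), Tef by 1.27 ± 0.10 (2.41-fold, 9.79e-08), Hlf by 0.47 ± 0.08 (1.38-fold, 0.00127) and Bhlhe41 by 0.66 ± 0.14 (1.58-fold, 0.00623). Bhlhe40 differed by 0.55 ± 0.20 (adjusted p = 0.203; 0.0152 with array weights). At CT15 against CT03, 4 were higher, among 2.68% of all genes, this time with Bhlhe40 (2.19-fold, adjusted p = 0.00156) and without Bhlhe41 (0.14 ± 0.14, 0.716). Tef (2.16-fold), Hlf (1.44-fold) and Dbp (2.23-fold, adjusted p = 0.0202) made up the rest. The Bhlhe41 call at CT12 against CT00 was lost without CT00 replicate 1 (adjusted p = 0.0506) or CT12 replicate 1 (0.0526), and the Dbp call at CT15 against CT03 without CT03 replicate 2 (0.107), CT15 replicate 2 (0.0544) or CT15 replicate 3 (0.0776).

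The other pairs of times called fewer members, all as lower at the later time. At CT18 against CT06, Dbp (2.96-fold, adjusted p = 0.00236) and Bhlhe41 (1.61-fold, 0.00519) were lower at CT18, among 3.21% of all genes, whereas Tef (-0.05 ± 0.10), Hlf (0.08 ± 0.08) and Bhlhe40 (0.21 ± 0.20) were not called. At CT21 against CT09, Dbp (7.97-fold, adjusted p = 1.96e-06), Tef (2.05-fold, 3.54e-06) and Bhlhe41 (2.29-fold, 1.37e-05) were lower at CT21, among 2% of all genes. Hlf differed by -0.24 ± 0.08 (adjusted p = 0.137; 0.0213 with the replicate block) and Bhlhe40 by -0.24 ± 0.20 (0.728).

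Within a time, the livers numbered 3 tended to read high in these genes and those numbered 1 low. Replicate 3 was the highest of the 3 livers at 7 of the 8 times for Dbp, 6 for Hlf and 5 each for Tef, Bhlhe40 and Bhlhe41. Replicate 1 lay below the mean of its time at all 8 times for Hlf and Bhlhe40 and at 7 for Dbp, but at 4 for Tef. At CT06 and CT09 replicate 3 was highest in all 5 genes, and at CT00 replicate 1 was lowest in all 5. Nfil3 was lowest in replicate 3 at 6 of the 8 times. The labels do not say whether a number marks a shared batch, and its part in the results was not tested beyond the fits with the number as a block. For Dbp the gap between replicates 1 and 3, -1.94 and -0.04, was wider than that between any livers of another time. Over the 24 arrays, deviations from the mean of the time were compared for the 10 pairs of genes by permuting arrays within each time (100000 resamples, two-sided). No pair passed after adjustment, and 3 pairs had an unadjusted p under 0.05 for Pearson's r. The strongest relation joined Hlf and Bhlhe40 (r = 0.615, permutation p = 0.0207, adjusted 0.119; rho = 0.607, p = 0.0154, adjusted 0.077). Without the 2 arrays farthest from the median for Hlf, CT09 replicate 3 and CT15 replicate 1, r was 0.469. Dbp and Hlf had r = 0.383 (permutation p = 0.0238, adjusted 0.119; rho = 0.570, p = 0.00823, adjusted 0.077; r = 0.459 without the 2 farthest arrays), and Dbp and Bhlhe40 r = 0.448 (permutation p = 0.0369, adjusted 0.123; rho = 0.470, p = 0.0437, adjusted 0.146; r = 0.277 without them). For Dbp and Tef r was 0.472 (permutation p = 0.297, adjusted 0.371) and rho 0.198 (permutation p = 0.457, adjusted 0.507). Without CT00 replicates 1 and 3 that r was -0.0441, so its size rests on those livers. Without CT12 replicate 2 the pairs of Bhlhe40 with Dbp (r = 0.527, permutation, adjusted p = 0.0304), Hlf (0.657, 0.0363) and Bhlhe41 (0.674, 0.0304) passed, and Dbp and Hlf passed without CT03 replicate 1 (0.475, 0.0193) or CT03 replicate 2 (0.409, 0.0313); the same pairs passed without all livers of CT12 and of CT03, respectively.

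**Figure D4:**
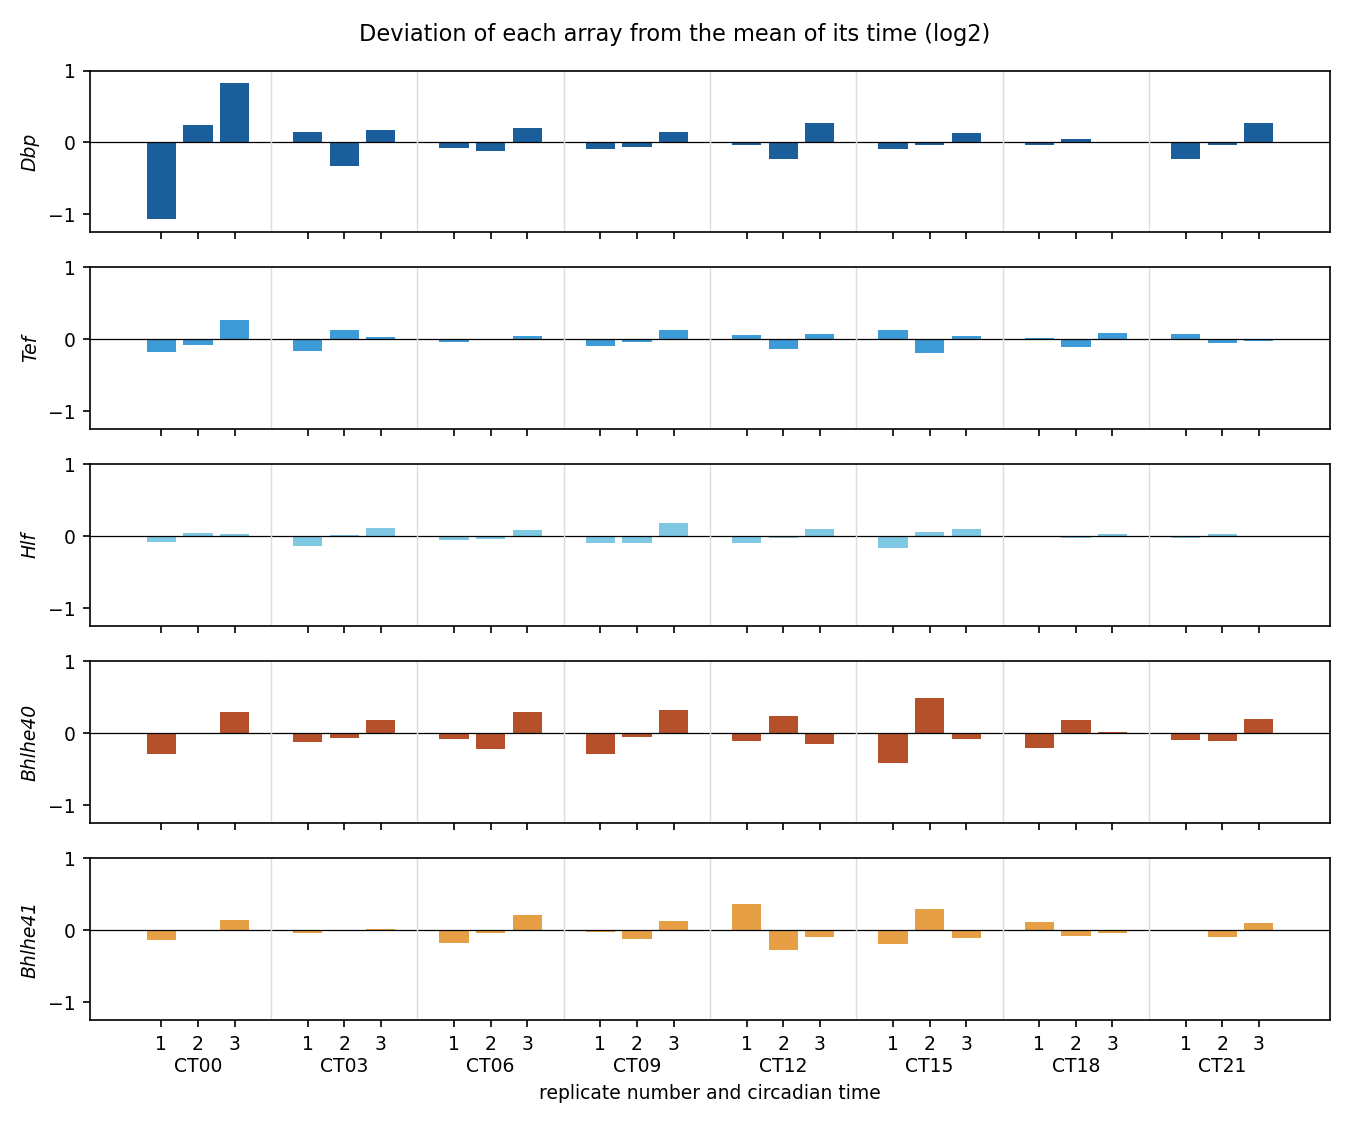
Deviation of each array from the mean of its time (log2, y axis, same scale) for the 5 genes, arrays ordered by circadian time and replicate number (x axis). The Dbp values of CT00 replicates 1 and 3 stand out below and above their time mean, and Bhlhe40 spreads most at CT15 (SD 0.45).

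Nfil3, the repressor that competes for D-boxes, peaked 9.35 to 11.7 h from the PAR bZIP genes. Its 3 livers read 0.57, 0.46 and 0.27 at CT00 and -0.43, -0.59 and -0.93 at CT09, where Dbp was at its highest. It had a fold of 2.015 and a peak at 22.4 ± 0.6 h (adjusted p = 7.43e-05 by limma). That peak lay 11.7 h from that of Dbp (interval 10.6 to 12.7). It lay 10.4 h after that of Tef (9.38 to 11.4) and 9.35 h after that of Hlf (8.22 to 10.5). The Dbp interval includes antiphase, 12 h, and those of Tef and Hlf do not. The 7 tested genes of the C/EBP family and Nfil3 had a median fold of 1.17, against 1.07 over all genes. Of them 4 had a 24 h wave (57.1%, against 13.8% of all genes). Beside Nfil3 these were Cebpg (1.17-fold, 14.2 h), Cebpe (1.20-fold, 6.10 h) and Cebpb (1.37-fold, 11.4 h), basic leucine zipper proteins of the C/EBP family.

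Among 8 tested clock genes with D-boxes, 7 had a wave (87.5%; median fold 2.78). Cry1, a repressor of CLOCK and BMAL1, peaked at 20.0 h (2.84-fold), Per2 at 15.2 h (2.50-fold) and Nr1d1, which encodes REV-ERB alpha, at 7.29 h (10.3-fold), on both sides of the 10.1 to 13.0 h of the PAR bZIP genes. The remaining called genes of this list did not flank that span. Ciart (11.25 h), Per3 (12.0 h) and Per1 (12.2 h) peaked within it and Nr1d2 (9.99 h) just before it. Of 3 tested E-box activators 2 had a wave (66.7%, median fold 1.84). These were Arntl, which encodes BMAL1, at 22.7 h (5.20-fold) and Clock at 23.5 h (1.84-fold). Arntl2 did not pass (1.065-fold, adjusted p = 0.474 by limma).

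Of 15 listed genes of drug and heme metabolism that have been placed downstream of the PAR bZIP factors, 12 were tested. Cyp2a4, Cyp2a5 and Por were not among the genes tested. Of the 12, 4 had a wave (33.3%, median fold 1.17), 3 of them with a night peak. Of all 2758 genes with a wave 1598 had a day peak and 1160 a night peak. Nr1i3, which encodes the xenobiotic receptor CAR, peaked at 10.5 h (1.65-fold), Abcb1a, a drug efflux pump gene, at 12.3 h (1.52-fold), and Alas1, the regulated enzyme of heme synthesis, at 13.8 h (3.45-fold, adjusted p = 5.48e-05). Cyp7a1, the rate-limiting enzyme of bile acid synthesis, peaked at 14.4 h (1.91-fold). The other 8, cytochrome P450 genes of the Cyp2b, Cyp2c and Cyp3a families and aldehyde dehydrogenase genes, did not pass. Of 13 tested genes of PPAR alpha and its targets, 8 had a wave (61.5%; median fold 1.71), 7 of them with a day peak. Ppara peaked at 9.86 h (1.71-fold) and Cpt1a, which admits fatty acids to mitochondria, at 9.62 h (1.95-fold), near the Dbp peak. The Pdk4 peak lay at 23.9 h (2.71-fold); the gene encodes a kinase that holds back pyruvate oxidation.

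Around the DEC genes the picture was mixed. Of 7 tested genes placed downstream of the DEC factors 4 had a wave (57.1%; median fold 1.26): Cyp8b1, the sterol 12-alpha-hydroxylase gene, at 1.68 h (1.80-fold), Cyp7a1 at 14.4 h, Rxra, a partner of nuclear receptors, at 8.83 h (1.24-fold) and Cyp51 at 2.48 h (1.28-fold). Of 10 relatives of the bHLH-Orange family 2 did (20%; median fold 1.09), Hes6 at 17.1 h (1.29-fold) and Hes1 at 1.90 h (1.44-fold). The next by p, Heyl, had an adjusted p of 0.347. Of 15 hypoxia response genes, a group to which Bhlhe40 also belongs, 7 had a wave (46.7%, median fold 1.15). A night peak was found in 6 of these 7, against 1160 of all 2758 genes with a wave. Bnip3, a mitophagy receptor, peaked at 12.8 h (1.72-fold), Ddit4, an inhibitor of mTOR signalling, at 19.9 h (1.45-fold), and Ndrg1 at 2.54 h (1.645-fold).

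**Figure D5:**
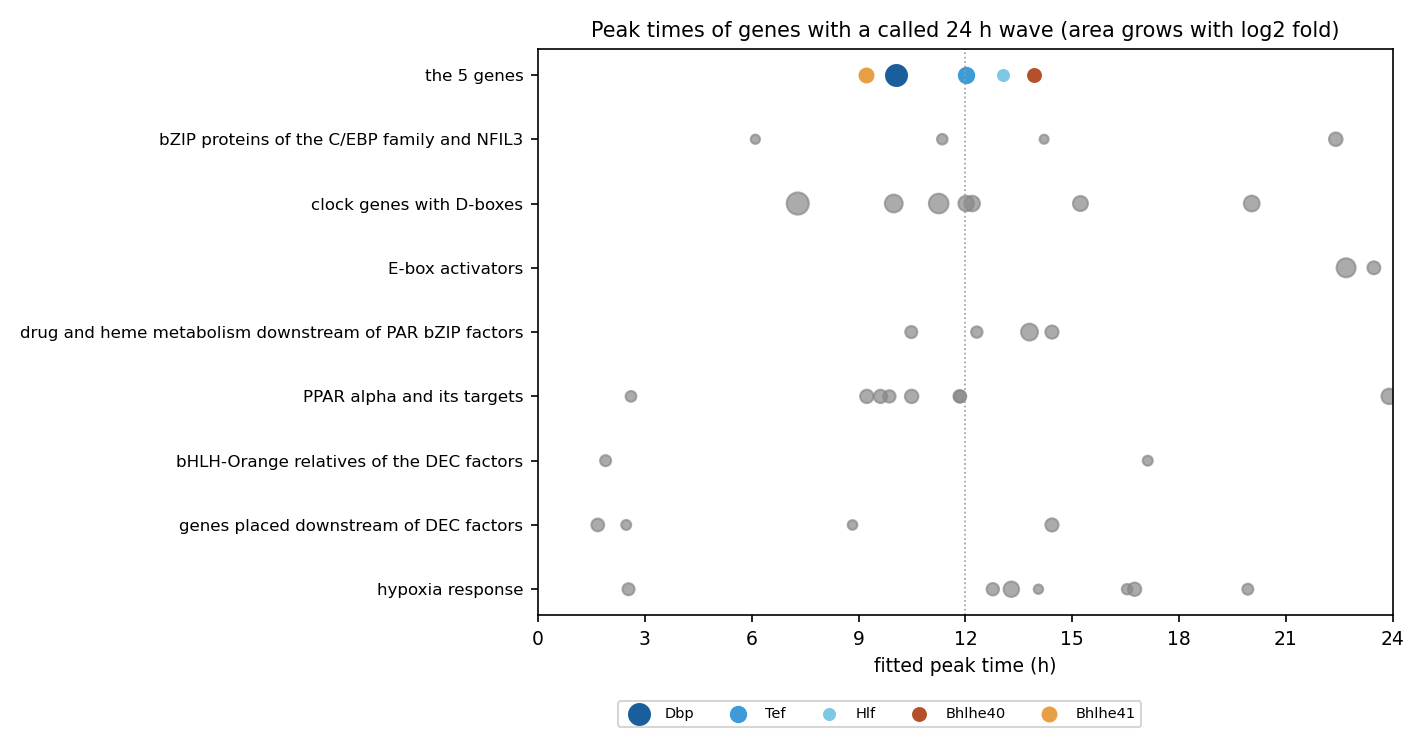
Fitted peak time in hours (x axis) of the 5 genes (coloured, top row) and of the genes with a called 24 h wave in 8 lists (grey, rows), point area growing with the log2 peak-to-trough fold. Of the 8 genes of PPAR alpha and its targets 6 lie from 9.23 to 11.9 h, around the Dbp peak at 10.1 h, with Lpl at 2.61 h and Pdk4 at 23.9 h, and E-box activators lie at 22.7 and 23.5 h.

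The genes outside these 5 that were most like each of them over the 24 arrays are given by Pearson's r, as a description over arrays that share the cycle. Nearest to Dbp were Cpt1a (r = 0.940), Ppara (0.938) and Slc38a3, a glutamine transporter gene (0.923). Nearest to Tef were Per3, a period gene (0.976, peak at 12.0 h), Slc39a14, a metal transporter gene (0.927), and Gys2, the liver glycogen synthase gene (0.925). Gys2 was also nearest to Hlf (0.926), ahead of Wee1, a cell cycle kinase gene (0.910), and Bnip3 (0.905). For the DEC genes the closest matches were looser. Among genes outside the 5, Mtss1 (0.806), Riok2 (0.804) and Fam126b (0.795) came nearest to Bhlhe40, and Slc2a5, a fructose transporter gene (0.870), Mapk6 (0.867) and Il15ra (0.864) nearest to Bhlhe41. Set among all 19934 other genes, Hlf was in place 1 for likeness to Bhlhe40 (r = 0.824), Tef in place 4 for Hlf (0.882) and Dbp in place 5 for Bhlhe41 (0.860). In the other direction Bhlhe40 was in place 29 for Hlf, Hlf in place 20 for Tef and Bhlhe41 in place 31 for Dbp. The DEC genes resembled each other least, with r = 0.477, which put Bhlhe41 in place 820 for Bhlhe40.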

How the data were processed

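Liver RNA was hybridized to Affymetrix Mouse Gene 1.0 ST arrays, 1 per liver, per the labels' protocols. The deposited values were treated as log2. How the authors corrected background, summarized and normalized, and the log base, is not given in the sources used here. Every row median was 0 to within 5e-07, so values are relative to each probe set's median and hold no level, and a filter on dim genes could not be set. For arrays the number of samples limits the precision. The 21780 probe sets with a single symbol were averaged by gene, updating symbols through Entrez identifiers (0 changed), which gave 19935 genes. Models were fitted in limma 3.58.1 (R 4.3.3) over all genes, with eBayes moderation and Benjamini-Hochberg adjustment at 0.05, on all 24 arrays: 24 h terms, group means (4 contrasts 12 h apart, 8 steps) and added 12 h terms. Differences between members came from joint least squares fits with delta-method 95% intervals and from permutation tests. The 24 h, 12 h and 8-time tests and the delta-method intervals were tried on simulated data. The contrasts, steps and permutation tests were not. Named were the 5 members, Nfil3, the 3 smallest 24 h p of the lists and the 3 genes most like each member. Further called genes of the lists (Cebpb, Ciart, Cyp51, Cyp7a1, Lpl, Nr1d2 and Per1) were named after their values were seen. The marker lists are given as counts. The members and lists were chosen with earlier results of these data known. Alternatives were other probe set choices, scalings, filters, moderation, array weights, periods, a replicate block, and leaving out arrays or times.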

Additional observations from a re-analysis of the deposited data

How the results depend on the processing

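All 5 genes kept their 24 h wave under every alternative run except Bhlhe40 without CT03 (amplitude 0.253), where equality of the times was lost too (range of means 0.549). Without single arrays amplitudes ran from 1.42 to 1.58 (Dbp), 0.67 to 0.73 (Tef), 0.24 to 0.28 (Hlf), 0.38 to 0.49 (Bhlhe40) and 0.50 to 0.56 (Bhlhe41). The 12 h component of Bhlhe41 was lost without CT03, CT09 or CT15 (amplitudes 0.241, 0.296 and 0.289), leaving 0 members with one. Members called from CT03 to CT06 numbered 3, but 1 without moderation and 5 with the replicate block, and 1 to 4 without single arrays. From CT06 to CT09 they numbered 1, but 0 with quantile normalization and 2 without CT00 (1 to 2 without single arrays). From CT12 to CT15 they numbered 0, but 2 among the genes with the larger interquartile range, 1 with array weights, 1 with the replicate block and 1 without CT00 (0 to 1 without single arrays). With array weights 1 was called in each of the steps CT09 to CT12 and CT18 to CT21, and from CT15 to CT18 1 was without CT00 (0 to 1 without single arrays). Pairs with shared deviations numbered 0, but 1 without CT03 and 3 without CT12 (0 to 3 without single arrays). No result reversed. Genes with a 12 h component ranged from 24 (without CT21) to 655 (array weights) around 115, and genes with unequal times reached 4900 with array weights. Genes called from CT03 to CT06 in either direction numbered 28, but 7 without moderation, 45 with the replicate block, 51 with array weights, 52 among the genes with the larger interquartile range and 61 with quantile normalization, and 3 to 41 without single arrays. Those called as higher at CT06 numbered 8, and 1 to 17 without single arrays. Counts of genes in the other steps moved too, and so did those of the 4 contrasts 12 h apart: without single arrays 400 to 739 for CT12 against CT00 (690), 535 to 1012 for CT15 against CT03 (894), 475 to 1032 for CT18 against CT06 (925) and 420 to 785 for CT21 against CT09 (709), with 1388 and 1211 for the first and last under array weights. The causes were not tested. Replicate numbers were not taken as pairs, since the labels do not say that they pair livers and 45, not all, of 84 same-numbered pairs of arrays had deviations correlated over 0.1. The median was 0.111, however, against -0.0623 for other numbers, and 14 of 24 arrays correlated best with one of their own number, a hint of pairing from the data and not the design. The permutation tests were not run with array weights. Where neither fit called a value, its sign was not compared.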

Other observations

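The other 5 genes called as higher at CT06 than at CT03 were named after their values were seen. They were Coq10b, a coenzyme Q binding protein gene (1.57-fold, 0.65 ± 0.11, SE, adjusted p = 0.0108 by limma), Cpt1a (1.37-fold, adjusted p = 0.0459), the transducin gene Gnat1 (1.47-fold, 0.0267), Stbd1, which encodes a glycogen binding protein (1.38-fold, 0.0267), and the zinc finger gene Zfp276 (1.29-fold, 0.0223). In each of the 5 all 3 livers of CT06 lay above all 3 of CT03. All 5 also had a 24 h wave, with peaks from 7.57 h (Gnat1) to 12.3 h (Coq10b), and Cpt1a was the gene most like Dbp over the 24 arrays. The smallest of these 5 differences, 0.37 ± 0.07 for Zfp276, was larger than that of Hlf in the same step, which was not called.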
